A study of Mus musculus with 3 samples.

Results

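Mature neutrophils are the final stage of the granulocyte lineage, and 942 of them were found among 47453 kept spleen cells by the transcripts they carried. A kept barcode had over 200 and under 3500 genes detected, under 15% of its unique molecular identifiers (UMIs, 1 per captured RNA molecule) from mitochondrial genes, and a top hashtag count at least 3 times the second. A kept cell was counted as a mature neutrophil with 10 or more UMIs of S100a8 plus S100a9, 1 or more of Csf3r, under 10 in total of Ngp, Camp, Ltf and Lcn2, and 0 of Cd79a. S100a8 and S100a9 form calprotectin, the most abundant cytosolic protein of neutrophils, Csf3r is the receptor for the granulocyte growth factor G-CSF, Ngp, Camp, Ltf and Lcn2 encode the specific granule proteins of the preceding stage, and Cd79a belongs to the B cell receptor. These 8 genes chose the cells, so their levels below are a description and support nothing.

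Spleen cells of mice aged 12 to 14 weeks were measured by droplet-based 5′ single-cell RNA sequencing after depletion of T cells with CD3 microbeads, in 3 libraries with 1 library per group. The C57Bl/6 control library combined sham-treated males with females for which the labels name no treatment. The C57Bl/6 Ang II library combined mice infused with angiotensin II (Ang II), a peptide that raises blood pressure, through an implanted minipump, with and without 2-HOBA, a scavenger of reactive lipid aldehydes called isolevuglandins. The B6.SLE123 library combined mice of the lupus-prone B6.SLE123 strain, which carries lupus susceptibility intervals on a C57Bl/6 background, with and without 2-HOBA. Each library therefore held 2 conditions, each a pool of 3 mice. The cells carried 6 hashtags, C0301 to C0306, that the labels do not tie to a condition. The hashtag populations are accordingly given by value and in the order C0301 to C0306 throughout, without a test.

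Neutrophils are short-lived phagocytes that are made in bone marrow and stored in part in the spleen. As they mature they stop dividing, build granules in a fixed order (azurophil, specific, gelatinase), lose the transcripts of the earlier granule classes, and gain chemokine and Fc receptors and the enzymes of the oxidative burst. They answer type I interferon, a cytokine linked to lupus, with a set of antiviral genes that share a promoter element, the interferon-stimulated response element (ISRE).

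The ISRE core, 2 copies of GAAA with 2 bases of any kind between them, was searched on both strands of the 250 bases before each RefSeq gene start (GRCm38.p6), since the interferon list is described below. It was present in 978 of 32851 promoters (2.98%). Of the 26 genes of the list with a promoter found, 15 held it in any of their promoters (57.7%). The first share counts promoters and the second counts genes, so they are not directly comparable. Overlapping matches were each counted. The following promoters are shown because Isg15, Ifit3, Bst2 and Igtp are antiviral or interferon-induced genes whose levels are given below. Capitals mark the bases of a match on either strand, and the sequences run 5′ to 3′ on the gene's strand. Isg15 (minus strand) had 3 matches that began 78, 72 and 66 bases before the start, Ifit3 (plus strand) 2 at 156 and 122 bases, Bst2 (minus strand) 2 at 130 and 124 bases, and Igtp (plus strand) 1 at 34 bases. A match is only a description of these letters.
Isg15 (chr4:156200819-156201068, minus strand): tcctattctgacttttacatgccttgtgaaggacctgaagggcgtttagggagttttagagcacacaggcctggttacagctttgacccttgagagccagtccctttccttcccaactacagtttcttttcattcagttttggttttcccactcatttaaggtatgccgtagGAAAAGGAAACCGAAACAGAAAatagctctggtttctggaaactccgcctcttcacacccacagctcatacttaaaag
Ifit3 (chr19:34583279-34583528, plus strand): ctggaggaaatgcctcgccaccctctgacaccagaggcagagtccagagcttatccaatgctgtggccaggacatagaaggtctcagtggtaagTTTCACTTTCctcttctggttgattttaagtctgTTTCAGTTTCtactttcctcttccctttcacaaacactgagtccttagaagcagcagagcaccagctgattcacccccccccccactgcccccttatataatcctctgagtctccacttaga
Bst2 (chr8:71537473-71537722, minus strand): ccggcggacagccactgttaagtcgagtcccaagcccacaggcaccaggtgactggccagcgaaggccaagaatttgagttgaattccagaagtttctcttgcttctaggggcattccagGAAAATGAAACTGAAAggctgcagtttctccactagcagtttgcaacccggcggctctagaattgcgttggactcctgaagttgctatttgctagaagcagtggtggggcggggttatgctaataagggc
Igtp (chr11:58199306-58199555, plus strand): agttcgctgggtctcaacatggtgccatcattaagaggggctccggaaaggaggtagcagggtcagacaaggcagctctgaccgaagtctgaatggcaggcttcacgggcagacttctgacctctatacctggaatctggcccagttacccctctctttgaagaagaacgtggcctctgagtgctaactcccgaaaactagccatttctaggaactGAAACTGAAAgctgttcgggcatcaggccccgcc

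The members lay at the low end of RNA content. Their median depth was 1081 UMIs (control), 1609.5 (Ang II) and 851 (B6.SLE123), against 1792, 2771 and 1956 in all kept cells. They had a median of 527, 718.5 and 447 genes and 0.0935%, 0.138% and 0.0877% mitochondrial UMIs, against 1.70%, 1.53% and 1.38% in kept cells. The deposited barcodes numbered 18218, 16062 and 20691, of which 15957, 13982 and 17514 were kept. The libraries shared 415 to 496 barcode sequences in pairs, and none of these was a member in both libraries of a pair. The libraries were not matched for sex. In the control library Xist, the transcript of the inactive X chromosome, was found in 0.55% to 0.86% of cells with C0301 to C0303 and 49.8% to 52.1% with C0304 to C0306. It was found in 47.0% to 55.4% of cells in every B6.SLE123 population and in 0 of 13982 cells infused with Ang II (at most 0.0215% by a limit of 3 counts). Some comparisons are therefore also given against the control populations of the same kind. Ratios of single genes are given in this way only for some of those with the highest and lowest ratios. Other genes, among them Ifitm1 and Wfdc17, carry no such value, so a missing value does not mean that the ratio held. All intervals are 95% intervals for counting error alone, since no replicate library exists.

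The markers outside the rule were present, but not all of them told mature from immature neutrophils. Of 7 further markers of mature neutrophils, none was at 0 in any library. Their summed level was 14710 CPM (a gene's UMIs per 1000000 UMIs of the same cells) in the control, 13389 in the Ang II and 16398 in the B6.SLE123 library. Retnlg held 5019 of the 6817 UMIs of this sum in the control library, and its level rose with the granule gene sum (below). Cxcr2, the receptor that draws neutrophils out of the marrow, stood at 1545, 1577 and 1633 CPM, and Mmp9, gelatinase B, at 1325, 1271 and 931 CPM. Ly6g, the antigen by which mouse neutrophils are stained, was low, at 43.2, 103 and 103 CPM, and was higher in immature neutrophils (below). S100a9 and S100a8 took 8.60% and 6.79% of member UMIs in the control library. In cells with 3 or more Cd79a UMIs and no Csf3r UMI, taken as a B cell reference, S100a8 plus S100a9 stood at 624, 950 and 895 CPM against 153982, 139820 and 123872 CPM in members. A UMI of these genes was found in 7.03%, 36.0% and 18.9% of the reference cells, at median depths of 1845, 2846 and 2112 UMIs.

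Transcripts of other cell types were present at low counts. The basophil list was at 0 in all libraries. Over all members there were 471, 347 and 536 UMIs of the B cell list, 98, 68 and 2 of the natural killer (NK) cell list, and 170, 111 and 170 of the monocyte list. Of the 8 monocyte markers, 6 were at 0 in the Ang II library (Ccr2, F13a1, Ms4a6c, Fn1, Ace and Ear2) and none in the B6.SLE123 library. Of the 7 macrophage markers, C1qa, C1qb, C1qc, Vcam1 and Spic were at 0 in both C57Bl/6 libraries, and only Spic was at 0 in the B6.SLE123 library. Members that carried markers of other cells were found with shorter lists. These were the NK and basophil lists, the T cell list without Cd4 and Cd8a, and the B cell list without Cd74 and Ighm. The monocyte list went without Csf1r and Ly6c2, the macrophage list without Hmox1 and Adgre1, and the dendritic cell list without H2-Aa. Members with 3 or more UMIs of any such shorter list or 10 or more of Cd74 numbered 11, 3 and 7. Of these, 5 were in control C0302 and 6 in B6.SLE123 C0303. Values without these members are given for some of the results that change.

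Cells lay near each limit of the rule. Members with 10 to 14 UMIs of S100a8 plus S100a9 numbered 6, 5 and 11 in the 3 libraries, and cells that met every other term with 5 to 9 numbered 9, 5 and 14. Members with a granule gene sum of 7 to 9 numbered 17, 24 and 9, and cells just outside, with 10 to 12, numbered 12, 14 and 4. Exactly 1 Csf3r UMI was found in 71, 18 and 82 members, and the Csf3r term alone removed 35, 11 and 49 cells. The Cd79a term alone removed 96, 58 and 61 cells that met every other term.

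Mature neutrophils made up a smaller share of the B6.SLE123 than of the control library. Members were 2.48% of kept control cells (395; 2.24% to 2.73%), 2.12% of kept Ang II cells (296; 1.88% to 2.37%) and 1.43% of kept B6.SLE123 cells (251; 1.26% to 1.62%). As log2 ratios the shares differed by -0.79 (-1.02 to -0.56) for B6.SLE123 and -0.23 for Ang II against control. With every cell thinned to 500 UMIs before the rule was applied, the shares were 2.14%, 1.87% and 1.19%.

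The hashtag populations of each library differed more than the libraries did. The shares were 2.30%, 2.57%, 2.26%, 1.23%, 4.02% and 2.03% in the control library. They were 2.26%, 5.01%, 2.01%, 1.41%, 1.46% and 1.28% in the Ang II library. In the B6.SLE123 library they were 2.71%, 2.13%, 1.97%, 0.526%, 0.661% and 0.482%, so that C0301 to C0303 lay within the range of the control populations and C0304 to C0306 below it. The first 3 B6.SLE123 populations together held 2.26% mature neutrophils and the last 3 held 0.545%, and the log2 ratio against control was -0.13 and -2.18. In the Ang II library the same sets of 3 held 2.97% and 1.39%, with ratios of 0.26 and -0.83, while those of the control held 2.40% and 2.56%. Whether these sets are the 2 conditions of a library is not given by the labels. In the control library they were also the sets that the sex-linked transcripts divided.

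**Figure D1:**
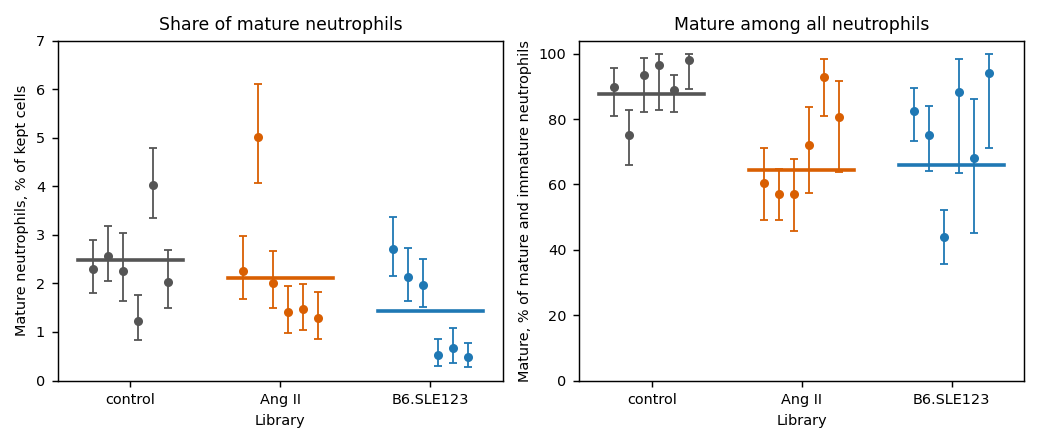
Share of kept cells that were mature neutrophils (left, %) and share of mature among mature plus immature neutrophils (right, %), for the 6 hashtag populations of each library in the order C0301 to C0306. Points are populations with exact 95% intervals and lines the library values. The last 3 B6.SLE123 populations lie at 0.482% to 0.661%, below every control population.

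Immature neutrophils, which met the same rule with a granule gene sum of 10 or more, numbered 56 in the control, 163 in the Ang II and 130 in the B6.SLE123 library. Mature cells were thus 87.6%, 64.5% and 65.9% of both stages. The control populations held 75% to 98.0% mature cells. The Ang II populations with C0301 to C0303 held 60.5%, 57% and 57.1%, below every control population, and those with C0304 to C0306 held 72%, 93.0% and 80.6%. B6.SLE123 C0303 alone held 83 immature neutrophils and Ang II C0302 held 71.

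The stages differed in genes the rule did not use, which are given side by side because both were chosen from the same readout. Cxcr2 stood at 297, 325 and 198 CPM in immature neutrophils (control, Ang II and then B6.SLE123, as in all lists of 3 values) against 1545, 1577 and 1633 CPM in mature ones. Il1b, the inflammatory cytokine interleukin-1 beta, stood at 391, 554 and 53.8 CPM against 4031, 5315 and 3710 CPM. Cebpb, Junb and Mcl1, which encode transcription factors and a survival factor, were likewise higher in mature cells of all 3 libraries, with Mcl1 at 1994, 2199 and 1891 against 449, 520 and 385 CPM. Ly6g, Cd177, Cebpe, Chil3 and Anxa1 had the reverse order in every library. Chil3, a chitinase-like protein of the granule-building stage, stood at 41.0, 6.04 and 123 CPM in mature and 4373, 4448 and 5621 CPM in immature cells, and Cebpe, the factor that switches on specific granule genes, at 25.9, 22.2 and 15.9 against 402, 343 and 506 CPM. Cybb, the membrane subunit of the NADPH oxidase, stood at 71.2, 22.2 and 103 CPM in mature against 960, 1135 and 1088 CPM in immature cells. The Cybb transcript therefore did not follow the gain of oxidative burst enzymes described above. Mki67, a marker of dividing cells, stood at 0, 4.03 and 43.6 CPM in mature and 214, 132 and 266 CPM in immature cells. Ccr2, the chemokine receptor of inflammatory monocytes, stood at 13, 0 and 7.93 CPM in mature neutrophils against 689, 834 and 602 CPM in Ly6c2 monocytes.

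**Figure D2:**
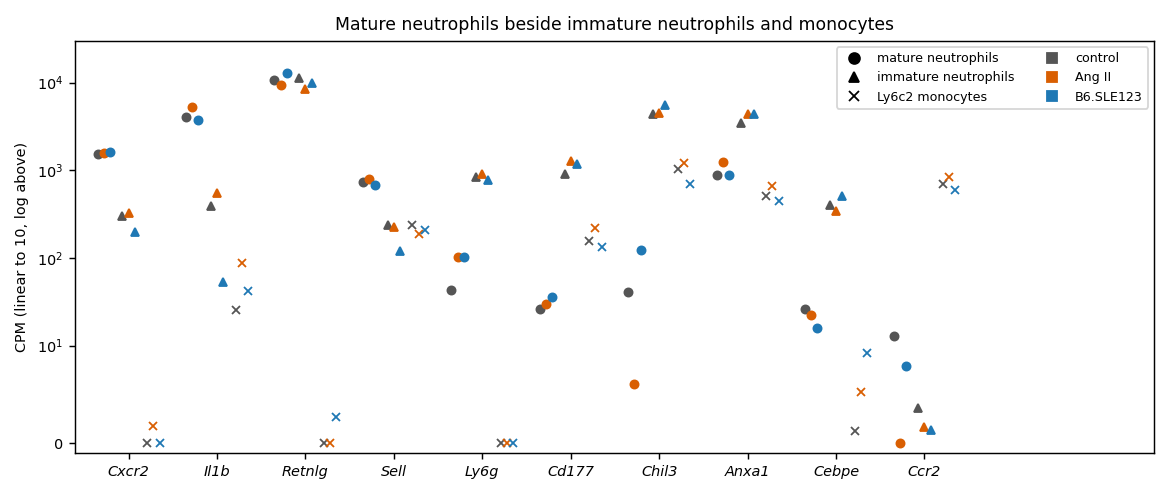
Levels (CPM, axis linear to 10 and logarithmic above) of 10 genes outside the rule in mature neutrophils (circles), immature neutrophils (triangles) and Ly6c2 monocytes (crosses) of the 3 libraries (colours). Cxcr2 and Il1b lie higher in mature than in immature neutrophils of each library, and Chil3 and Cebpe lie lower.

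Members were also divided by the granule gene sum, which is part of the rule, so levels along it are a description. The sum was 0 in 199 control, 103 Ang II and 156 B6.SLE123 members (50.4%, 34.8% and 62.2%), and the rest were divided into sums of 1 to 2 and of 3 to 9. Median depth rose with the bin, from 1005 to 1139 and 1252 UMIs (control), from 1432 to 1606 and 1749.5 (Ang II) and from 807 to 925.5 and 1020 (B6.SLE123), and its part in the order was not tested. Of 689 genes with 50 or more UMIs in each library, the level went up from bin to bin in all 3 libraries for 5 genes (Mcemp1, S100a6, Wfdc21, Retnlg and Mgst1) and down for 25. Retnlg, a resistin-like protein of neutrophils, stood at 9138, 9910 and 14964 CPM in the control bins, 6027, 10218 and 11274 in the Ang II bins and 9596, 15403 and 20376 in the B6.SLE123 bins. Cxcr4, the receptor that retains young and recalls old neutrophils to the marrow, stood at 528, 475 and 256 CPM, at 603, 584 and 375 CPM and at 322, 263 and 156 CPM respectively. The genes that went down also included Il1b, Cd9, Txn1, Mcl1, Fgr and Tnfaip2. These 30 genes were found by their values and carry no test.

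**Figure D3:**
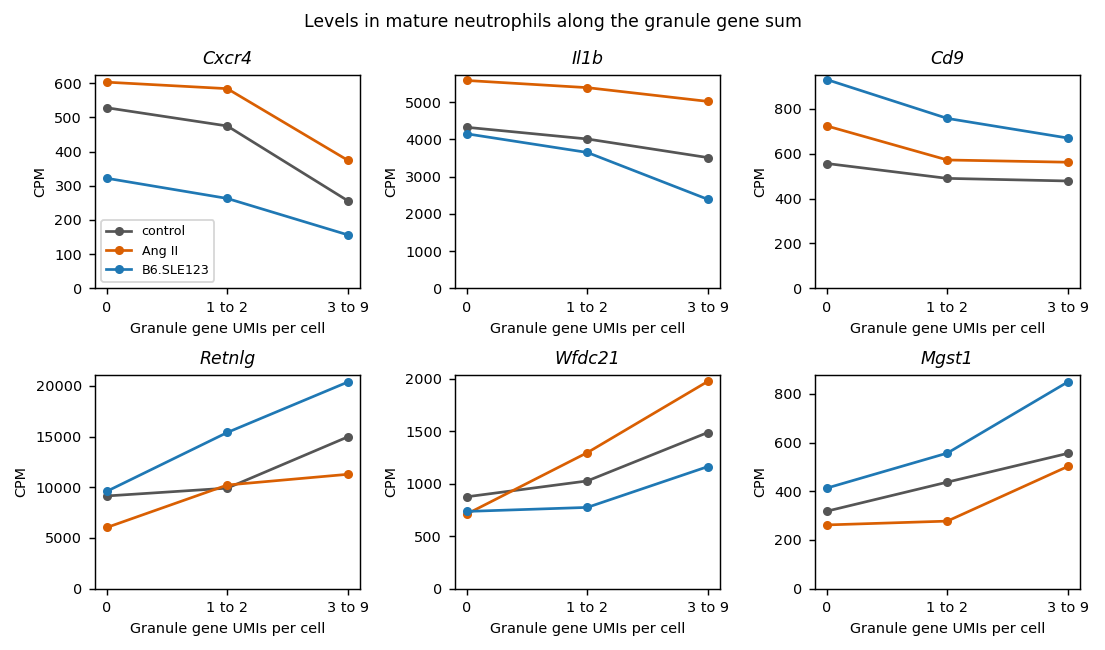
Levels (CPM) of Cxcr4, Il1b, Cd9, Retnlg, Wfdc21 and Mgst1 in mature neutrophils with a granule gene sum of 0, 1 to 2 and 3 to 9, 1 line per library. Cxcr4, Il1b and Cd9 go down and Retnlg, Wfdc21 and Mgst1 go up from bin to bin in every library.

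In B6.SLE123 against control, a gene was called past the fold with a log2 ratio of CPM of 1 or more either way, among the 1799 genes with 50 or more UMIs over both libraries. There were 78 such genes (4.34%), 46 higher (2.56%) and 32 lower (1.78%) in B6.SLE123. This division depended on the scaling: trimmed mean of M-values (TMM) scaling gave 25 higher and 51 lower (32.9% of 76 higher, against 59.0% of 78), the median of ratios gave 29 and 45 (39.2% of 74), and a total without the 8 rule genes gave 33 and 43 (43.4% of 76). The median over all genes was 0.02, and -0.12 under TMM. Every B6.SLE123 ratio below shifts by that difference under TMM, so its list medians nearer 0 than this have no settled direction. Against control C0304 to C0306 alone there were 56 such genes, 42 higher and 14 lower, and without the members that carried markers of other cells 59, 37 higher and 22 lower. Of all 1799 genes, 110 (6.11%) separated the populations: 38 (2.11%) lay higher and 72 (4%) lower in every B6.SLE123 population with 20 or more members (C0301 to C0303) than in every control population, and of the 78, 12 and 15 did so. The Ang II comparison below shares this control library, and the 2 are not independent.

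Slpi, a secreted inhibitor of neutrophil elastase and cathepsin G, was 3.21-fold lower in B6.SLE123 members (chr2:164354070-164389095). It stood at 7135, 7399, 8092, 8871, 6633 and 7433 CPM in the control populations and at 5180, 6434, 6312, 8026, 6218 and 7350 CPM in the Ang II populations. In the B6.SLE123 populations it stood at 3993, 402, 1692, 4823, 3705 and 330 CPM. All 6 B6.SLE123 values lay below all 12 others, and C0302 and C0306 were the lowest. The library ratio was 2271 against 7285 CPM (log2 ratio -1.68, -1.81 to -1.55), and -1.65 against control C0304 to C0306 alone. The median member had 7 Slpi UMIs in the control, 8 in the Ang II and 1 in the B6.SLE123 library. Slpi was also lower in immature neutrophils of B6.SLE123, at 1848, 1446 and 449 CPM in the 3 libraries. It had the other order in the B cell reference, at 74.7, 41.5 and 650 CPM, and the part of that background in the neutrophil values was not tested.

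Ifitm1, an interferon-induced membrane protein that restricts virus entry, was 2.62-fold higher in B6.SLE123 members (chr7:140967221-140969825). The control populations had 2796, 2784, 2546, 809, 2611 and 1504 CPM, the Ang II populations 5025, 3976, 4258, 747, 1210 and 2291 CPM, and the B6.SLE123 populations 8098, 7593, 3233, 8869, 6963 and 8240 CPM. Every B6.SLE123 value exceeded every control value, while C0304 was the lowest population of both C57Bl/6 libraries. The library levels were 6318 against 2412 CPM (log2 ratio 1.39, 1.28 to 1.5). In the B cell reference Ifitm1 stood at 3.64, 2.69 and 1340 CPM and in Ly6c2 monocytes at 6.32, 13.9 and 83.2 CPM, so it also differed outside neutrophils, and the part of free RNA in the result was not tested. In immature neutrophils it stood at 283, 407 and 415 CPM. The other family members did not share the size of this difference: Ifitm2 had a log2 ratio of 0.59, Ifitm3 of -0.05 and Ifitm6 of -0.43, and similar sequences make the division of reads among them uncertain.

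Wfdc17, a protein of the same whey acidic protein family as Slpi, was higher in B6.SLE123, at 5002 against 2063 CPM (log2 ratio 1.28, 1.16 to 1.40; chr11:83703991-83706268). The control populations had 2404, 2456, 2287, 1619, 1923 and 1329 CPM and the B6.SLE123 populations 6456, 7612, 1774, 6457, 4471 and 6790 CPM. Only C0303 lay within the control range. In the Ang II library the level was 3092, 4696 and 7398 CPM with C0301 to C0303 and 287, 605 and 1180 CPM with C0304 to C0306, so the Ang II populations lay both above and below the whole control range. Ldha, Entpd1, Cd84, Jdp2 and Phospho1 below were chosen after their values were seen.

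Glrx, glutaredoxin, which reduces protein-glutathione bonds, was higher in B6.SLE123, at 646 against 168 CPM (log2 ratio 1.94, 1.54 to 2.35; chr13:75839868-75850154), and 1.62 against control C0304 to C0306. Its levels were 139, 139, 64.7, 156, 243 and 157 CPM in the control, 275, 232, 118, 153, 151 and 227 CPM in the Ang II and 637, 765, 537, 1011, 511 and 725 CPM in the B6.SLE123 populations. No B6.SLE123 value overlapped another library. In immature neutrophils Glrx stood at 319, 466 and 409 CPM.

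Ldha, lactate dehydrogenase A, stood at 809 against 250.3 CPM (log2 ratio 1.69, 1.36 to 2.03; chr7:46841475-46855627). The control populations had 392, 249, 194, 249, 209 and 210 CPM and the B6.SLE123 populations 807, 918, 700, 1089, 1022 and 593 CPM, without overlap. Ldha was also higher in B6.SLE123 in the B cell reference, at 169, 203 and 282 CPM, and in immature neutrophils, at 467, 576 and 819 CPM. Upp1, uridine phosphorylase, had 40 against 16 UMIs and a log2 ratio of 2.20 (1.33 to 3.13). Its B6.SLE123 populations had 127 to 256 CPM and its control populations 9.94 to 62.3 CPM.

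Nfkbia, the inhibitor that holds NF-kB in the cytoplasm and is itself induced by it, stood at 717 against 261 CPM (log2 ratio 1.46, 1.12 to 1.80; chr12:55489410-55492647). Its control populations had 329, 288, 194, 187, 270 and 192 CPM, its Ang II populations 215, 390, 258, 249, 302.5 and 340 CPM and its B6.SLE123 populations 821, 593, 619, 1167, 767 and 791 CPM. The B6.SLE123 values lay above all others. In the B cell reference Nfkbia stood at 262, 296 and 286 CPM in the 3 libraries. In the list of 20 transcription factors 17 were measured, with a median of -0.19. Of these 2 were past the fold higher (Irf8 at 1.73 and Nfkbia) and 2 lower (Fosb at -1.01 and Atf3 at -1.02). Of all genes so measured, 5.08% were past the fold higher and 4.04% lower. Irf8, a factor of dendritic cells and B cells, had 25 of its 27 UMIs in B6.SLE123 C0303 and 13 of 15 control UMIs in C0302, and only 3 and 2 UMIs without the members that carried markers of other cells.

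**Figure D4:**
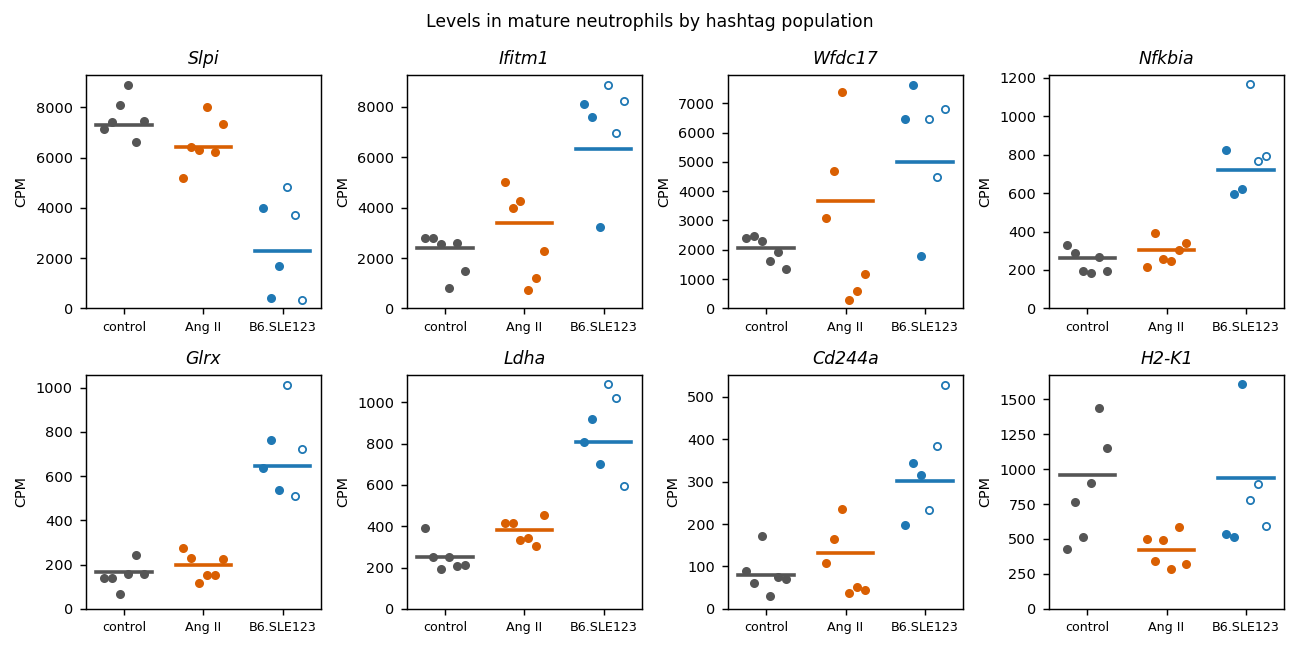
Levels (CPM) of Slpi, Ifitm1, Wfdc17, Nfkbia, Glrx, Ldha, Cd244a and H2-K1 in mature neutrophils of each hashtag population (points, in the order C0301 to C0306, open where under 20 members) with the library value as a line. For Glrx and Ldha every B6.SLE123 population lies above every control population, and for Slpi every one lies below.

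Cd244a, a receptor of the SLAM family, whose genes lie together on chromosome 1, was higher in B6.SLE123, at 301.2 against 79.8 CPM (log2 ratio 1.92, 1.33 to 2.52; chr1:171559193-171609746). Its populations had 198, 344, 315, 233, 383 and 527 CPM in B6.SLE123 and 31.1 to 173 CPM in the control library. Cd84, another SLAM family receptor, was lower, with a log2 ratio of -1.06. Ccdc180 had 3 against 57 UMIs (-3.37; chr4:45890303-45950774) and Apoe, the lipid carrier apolipoprotein E, 5 against 84 UMIs (-3.19). Rilpl2, Rell1 and Lrch4 each had 7 UMIs in B6.SLE123 and log2 ratios of -1.84, -1.77 and -1.74. Entpd1, the ectonucleotidase CD39 that degrades extracellular ATP, was lower at 111 against 281 CPM (log2 ratio -1.34, -1.98 to -0.74), although B6.SLE123 C0305 and C0306, with 192 and 264 CPM, lay within the control range of 187 to 420 CPM.

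Some of the ratios of B6.SLE123 are uncertain for the gene they name. Ftl1-ps1, a copy of the ferritin light chain gene named as a pseudogene, had 728 against 60 UMIs (4.48), while Ftl1 itself had 834 against 3057 (-0.997), and near-identical copies can divide reads. Ftl1-ps1 was also higher in the B cell reference, at 384 against 17.2 CPM. The stefin genes Cstdc6 (55 against 0 UMIs), Cstdc5 (49 against 23) and Stfa1 (0 against 43) are likewise near-identical neighbours. Gzma, the NK cell granzyme, had 1 against 62 UMIs, of which 54 were in 1 control cell of C0302. Without that population the log2 ratio was 0.52, as it was for Ccl5 and AW112010. With 1, 5 and 7 UMIs of the 3 genes in B6.SLE123, these ratios rest on few UMIs and give no direction. Npm1 had 63 against 25 UMIs (2.21), and 30 of the 63 were in 3 cells. Hsp90b1, a chaperone of the endoplasmic reticulum, had 53 against 27 UMIs (1.85), and its 3 larger B6.SLE123 populations lay above the control range.

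The interferon response list had 22 of 31 genes with 20 or more UMIs in B6.SLE123 against control. Of these 18 were above 0, with a median log2 ratio of 0.53 against 0.02 over all 3486 genes so measured, and 3 were past the fold higher (Ifit3b at 1.07, Oas1a at 1.01 and Bst2 at 1.10) and 0 lower, against 5.08% and 4.04% of all genes. Bst2 had 14 of its 28 UMIs in 1 B6.SLE123 cell and 16 of 24 in 1 control cell, and 6 against 5 UMIs without the members that carried markers of other cells. Isg15, a ubiquitin-like antiviral protein, stood at 354, 159, 216, 498, 560.1 and 647 CPM in the control and 453, 593, 1132, 545, 383 and 527 CPM in the B6.SLE123 populations, which overlapped, and had a library ratio of 0.81. Ifit3, an antiviral protein of the tetratricopeptide family, had 15 UMIs in each library (0.88, with an interval of -0.26 to 2.01), and Igtp, an interferon-inducible GTPase, had 22 against 31 UMIs (0.38). The 12 measured genes with an ISRE core in the promoter had a median of 0.84 and were all above 0, the 6 without it 0.41, and the 4 with no promoter in the RefSeq table -0.15. The summed level of the list was 3479, 3431, 4208, 4202, 6782 and 6821 CPM in the control populations and 4460, 5260, 9266, 5679, 5749 and 5076 CPM in the B6.SLE123 populations. The ranges overlapped, with control C0305 and C0306 above all B6.SLE123 populations but C0303. Against control C0304 to C0306 alone the median was 0.17 and against C0301 to C0303 alone 1.21, and it was 0.17 without B6.SLE123 C0303.

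The class I antigen presentation list (8 genes, all measured) had a median of 0.17 and no gene past the fold. It was -0.18 against control C0304 to C0306 and 0.65 against C0301 to C0303. The 4 measured class II genes, which belong to B cells, dendritic cells and macrophages, were all past the fold higher, against 5.08% of all genes. Their median was 1.56. However, 539 of the 749 class II UMIs of B6.SLE123 (72.0%) were in 4 members, 3 of them in C0303, and 183 of 508 (36.0%) were in 3 members in the control library. Without B6.SLE123 C0303 the median was -0.18.

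**Figure D5:**
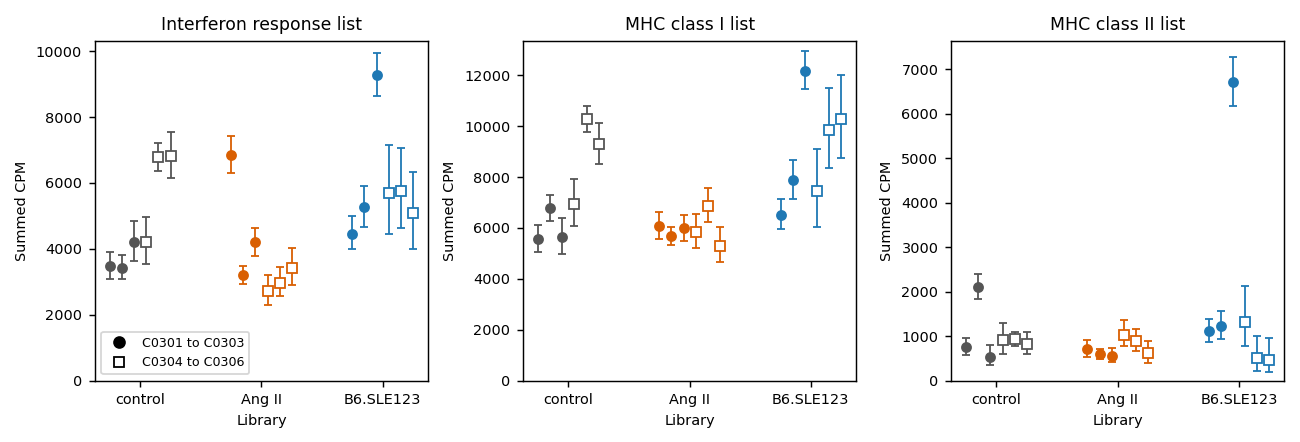
Summed levels (CPM) of the interferon response, MHC class I and MHC class II lists in mature neutrophils of each hashtag population with exact 95% counting intervals, C0301 to C0303 as circles and C0304 to C0306 as squares. In the control library C0305 and C0306 lie above C0301 to C0304 for the interferon list (6782 and 6821 CPM against 3431 to 4208 CPM).

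The other neutrophil lists of B6.SLE123 with 4 or more measured genes had medians between -0.36 and 0.52. Of all 3486 genes so measured, 5.08% were past the fold higher and 4.04% lower. Of 17 genes for chemoattractant and cytokine receptors none was past the fold, 13 were above 0 and the median was 0.27. The 6 NADPH oxidase genes had a median of 0.15 and none past the fold. Ncf1, the p47phox subunit, had -0.41, with an interval that included 0. Its B6.SLE123 populations of 20 or more members reached 240.7 CPM, just below the lowest control population at 242.9 CPM. A smaller B6.SLE123 population had 389 CPM. Of all 3486 genes, 94 lay lower without overlap in this way. Cybb had 0.53, but 21 of its 26 UMIs were in C0303, and without the members that carried markers of other cells it had 0.073. Of the antioxidant list 9 genes were measured, with a median of 0.33. Prdx1 (26 against 13 UMIs, 1.88) and Sod2 (17 against 14 UMIs, 1.16) were past the fold higher. Without the members that carried markers of other cells Prdx1 had 16 against 9 UMIs (1.75) and Sod2 14 against 13 (1.03). The gelatinase and late granule list (9 genes) had a median of 0.09, with Slpi at -1.68 and Mmp9 at -0.51. Chil3 was past the fold at 1.58, but 29 of its 31 UMIs in B6.SLE123 and 15 of its 19 in the control library were in 1 cell each. In the maturation list (16 measured, median 0.04) Ifitm1, Wfdc17 and Ly6g (26 against 20 UMIs, 1.26) were past the fold higher, against 5.08% of all genes, and G0s2, an inhibitor of fat breakdown (51 against 226 UMIs, -1.27), was past it lower. Retnlg had 0.26, and the factor Cebpb, of another list, 0.41. Of the 4 measured cytokine genes, Cxcl2, a neutrophil chemoattractant, was past the fold (32 against 18 UMIs, 1.71), and Il1b had -0.12. Fc receptor and signalling genes (10 measured), adhesion genes (8) and survival genes (9) had medians of 0.07, 0.10 and 0.18, the S100 list (4) -0.14 and the list of extracellular trap and eicosanoid genes (4) -0.36. In the survival list Bcl2a1b, 1 of several near-identical anti-apoptotic copies, was past the fold (14 against 8 UMIs, 1.68), and in the list with trap genes Ptgs2, the prostaglandin synthase COX-2, was past it (4 against 35 UMIs, -2.25). The azurophil granule list had no gene measured in either comparison, and the cell cycle list had 1.

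In Ang II against control, 51 of 2265 genes were past the fold (2.25%), 37 higher (1.63%) and 14 lower (0.618%). TMM scaling gave 36 higher and 15 lower. Populations were separate for 45 genes (1.99%): in 27 (1.19%) every Ang II population lay above, and in 18 (0.795%) below, every control population. Of the 51 genes, 7 lay above and 0 below. Against control C0301 to C0303, which like the Ang II library carried Y-linked transcripts, there were 57, 48 higher and 9 lower.

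Phospho1, a phosphatase of phosphocholine and phosphoethanolamine, was 2.40-fold higher in Ang II members (chr11:95824499-95832140). Its control populations had 88.6, 139, 129, 93.4, 142 and 35.0 CPM and its Ang II populations 275, 268, 333, 268, 168 and 318 CPM. All 6 Ang II values lay above the control range. The log2 ratio was 1.26 (0.79 to 1.75), from 136 against 53 UMIs. Jdp2, a repressor of AP-1, had 105 against 40 UMIs and 1.29, at 151 to 295 CPM in the Ang II against 0 to 140 CPM in the control populations. Hist1h2ap (1.66), Hist2h2aa1 (1.38), Mff (1.49), Rab1b (1.35) and Ccng1 (1.10) also did not overlap, and the histone genes have near-identical copies. Bcl2l11, which encodes the death factor Bim, had 37 against 12 UMIs and 1.52, again without overlap.

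Pcmtd1 had the highest log2 ratio, 2.22 (1.23 to 3.37) from 50 against 10 UMIs (chr1:7088920-7173628), with 68.1 to 134 CPM in Ang II and 0 to 93.4 CPM in control populations. Hspa1b, an inducible heat shock protein, had 48 against 14 UMIs and 1.68. It was also higher in the B cell reference of that library, at 77.1 against 22.9 CPM, and in Ly6c2 monocytes, at 366 against 163 CPM. Stfa1 had 159 against 43 UMIs (1.79), with the same doubt about its neighbours as above.

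Cytokine genes were higher in the Ang II library. All 6 that were measured were above 0, with a median of 0.92 against 0.04 over all 4106 genes, and 3 were past the fold against 3.7% of all genes: Ccl4 (21 against 4 UMIs, 2.29), Cxcl2 (64 against 18, 1.73) and Osm (54 against 19, 1.41). Of the 64 Cxcl2 UMIs, 33 were in 3 cells. Osm, oncostatin M, stood at 191, 122 and 140 CPM with C0301 to C0303 and 19.2, 50.4 and 22.7 CPM with C0304 to C0306, against 0 to 93.4 CPM in the control populations, and its ratio turned to -0.35 with Ang II C0304 to C0306 alone. Il1b stood at 5348, 6141, 5667, 4195, 4167 and 4310 CPM in the Ang II and 4162, 4266, 3366, 4171, 4082 and 3760 CPM in the control populations, a log2 ratio of 0.40. The Ang II populations with C0301 to C0303 lay above every control population, while C0304 and C0305 lay within the control range, and C0306 just above it. The median of the list was 1.20 against control C0301 to C0303 and 0.72 against C0304 to C0306.

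The same split of the Ang II populations was seen in Ly6g, at 131, 91.5 and 194 CPM against 38.3, 50.4 and 45.4 CPM, and in Cd244a, at 107, 165 and 237 CPM against 38.3, 50.4 and 45.4 CPM. Over the whole Ang II library Ly6g had 51 and Cd244a 65 UMIs, so the values with C0304 to C0306 rest on few UMIs. For Ifitm1 and Wfdc17 (above), likewise, each of the C0304 to C0306 values lay below each of the C0301 to C0303 values. These genes were picked for the split, so it is a description.

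Receptor and transcription factor lists lay slightly above 0 in Ang II. Of 16 receptors measured 15 were above 0 and none past the fold, with a median of 0.36. Fpr1, the receptor for bacterial formyl peptides, had 0.69, C5ar1, the receptor for complement C5a, 0.49, and Ltb4r1, the leukotriene B4 receptor, 0.84. Of 17 transcription factors 15 were above 0, with a median of 0.23, and Cebpb had 0.54 and Junb 0.40. Adhesion genes (8 measured, 7 above 0) had a median of 0.20. The gelatinase list had 0.14, with Chil3 at -2.76 from 3 against 19 UMIs, 15 of these 19 in 1 cell, the maturation list 0.10, the survival list 0.14, the Fc receptor list 0.04, the NADPH oxidase list 0.03 with Cybb at -1.68 (11 against 33 UMIs, and -1.01 without the members that carried markers of other cells), the S100 list -0.24 with S100a10 at -1.28 (11 against 25 UMIs, and -0.53 without those members), and the trap and eicosanoid list -0.03.

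Of 10 antioxidant genes measured in Ang II none was past the fold, 4 were above 0 and the median was -0.35. For 3 of them (Gpx1, Prdx5 and Txn1) every Ang II population lay below every control population, as it did for 22 of all 4106 genes. Txn1, thioredoxin, stood at 1468, 1390, 1398, 1168, 1227 and 1225 CPM in the Ang II, 1834, 2029, 2244, 2708, 2524 and 2484 CPM in the control and 1968, 1798, 1914, 1712, 2172 and 1318 CPM in the B6.SLE123 populations. Its log2 ratio for Ang II was -0.76 (-0.90 to -0.62; chr4:57943373-57956411). Txn1 was lower in the B cell reference too, at 91.0 against 124 CPM, and in Ly6c2 monocytes, at 189 against 350 CPM. Gpx1, glutathione peroxidase, had -0.37 and Prdx5, a peroxiredoxin, -0.50. The median was -0.22 against control C0301 to C0303.

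Class I antigen presentation and interferon genes were lower in Ang II than in the whole control library, by amounts that turned on the control populations used. All 8 class I genes lay below 0, with a median of -0.65, and 2 were past the fold, against 2.75% of all genes. H2-K1, a class I heavy chain, stood at 501, 342, 495, 287, 588 and 318 CPM in the Ang II populations and at 430, 766, 518, 903, 1437 and 1154 CPM in the control populations (chr17:33996017-34000347). The ranges overlapped through control C0301 and C0303, and the log2 ratio was -1.19 (-1.43 to -0.95), -0.51 against control C0301 to C0303 and -1.63 against C0304 to C0306. H2-K1 was lower in the Ang II than in the control library in the B cell reference (1573 against 2006 CPM), immature neutrophils (259.7 against 616 CPM) and monocytes (791 against 1495 CPM) as well. H2-Q7, a class I-like gene with near-identical relatives, had 12 against 62 UMIs (-2.47), -1.16 without control C0305, which held 45 of the 62, and -3.75 without Ang II C0303. Without the members that carried markers of other cells H2-Q7 had 4 against 51 UMIs (-3.84). The median of the list was -0.28 against control C0301 to C0303 and -0.99 against C0304 to C0306. The 4 measured class II genes also lay below 0, with a median of -0.66 and none past the fold.

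Of the 31 interferon genes 24 were measured, 5 were above 0, and 5 were past the fold lower: Bst2 (-2.36), Zbp1 (-1.79), Igtp (-1.25), Ifi204 (-1.10) and Oas1a (-1.03), against 2.75% of all genes. Of the 24 control Bst2 UMIs, 16 were in 1 cell. Without the members that carried markers of other cells the ratio of Bst2 was -0.49, from 4 against 5 UMIs, and that of Oas1a -0.88. The median of the list was -0.40. It was 0.41 against control C0301 to C0303, -0.78 against C0304 to C0306, and 0.11 without control C0305 alone, so its direction depended on which control populations were used. The 12 measured genes with an ISRE core had a median of -0.62, the 7 without it -0.32 and the 5 with no promoter in the table -0.41. Crip1 (-1.96) and Plac8 (-1.79) were among the lowest ratios and moved to 0.096 and -0.51 without the members that carried markers of other cells.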

How the data were processed

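The authors deposited raw UMI counts per gene and hashtag for each barcode, which per the file headers came from Cell Ranger 6.0.0 without normalization. The genome build in the submitters' processing notes was mm10. Gene positions are those of GENCODE vM21 (GRCm38) and were found for 32235 of 32285 genes.

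The counts were analysed from there in Python 3.11.15. Barcodes were kept and members chosen as the report states. The members, gene lists and comparisons were chosen with earlier results of these data known. Doublets across hashtags were removed by the 3-fold hashtag rule, and doublets within 1 hashtag could not be seen. Counts were summed over members of a library or hashtag population and divided by their total (CPM). Log2 ratios carry exact conditional, CPM exact Poisson and shares exact Clopper-Pearson 95% intervals, and a count of 0 was set to a floor of 3 counts. Each group was 1 library, so no p-value, standard error or replicate check was possible. The total depth of members was 463438 UMIs in the control, 496538 in the Ang II and 252285 in the B6.SLE123 library, and ratios of genes with few UMIs are correspondingly imprecise. Named genes were the 10 highest and 10 lowest ratios per comparison among genes with 50 or more UMIs, without immunoglobulin, T cell receptor, sex-linked, mitochondrial and rule genes, and the members of 18 gene lists, of which 3 genes were not in the matrix. Others were chosen after their values were seen. List medians used genes with 20 or more UMIs. Alternatives were other scalings (TMM from edgeR 4.0.16), filters, thinning to 500 UMIs, sets of 3 hashtags, and leaving out each hashtag or the members with markers of other cells. The scripts were tested on simulated counts. Promoters are those of RefSeq (GRCm38.p6). The 2 conditions of each library were not compared, since no label ties a hashtag to one. In the control library only, sex-linked transcripts divided the hashtags into males and females, the 2 groups named for it. Some genes that the rule names are not reported here.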

Additional observations from a re-analysis of the deposited data

How the results depend on the processing

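No paired analysis was possible because each group was 1 library and the hashtags carry no replicate number in the labels. The cause of each shift below was not tested. The share of mature neutrophils in B6.SLE123 against control (log2 ratio -0.79) was -1.14 among cells without a Cd79a UMI, and -0.13 and -2.18 with B6.SLE123 C0301 to C0303 and C0304 to C0306 alone. In Ang II (-0.23) it was 0.11 with the limits on genes read as limits on UMIs, and 0.26 and -0.83 with the same sets of Ang II hashtags. Leaving out 1 hashtag at a time gave a range of -1.08 to -0.56 (B6.SLE123) and of -0.57 to -0.0017 (Ang II).

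The 78 genes past the fold in B6.SLE123 became 29 with members thinned to 500 UMIs (17 shared), 150 with C0304 to C0306 alone, 318 from 20 UMIs, 3198 from 1 UMI and 24 at a log2 ratio of 1.5 or more. The 51 of Ang II became 14 (5 shared), 265 from 20 UMIs, 3393 from 1 UMI and 11 at 1.5. Leaving out 1 hashtag gave 62 to 87 and 47 to 65 genes. The class II median in B6.SLE123 (1.56) was 0.80 as a mean over cells, -0.66 with C0304 to C0306 alone, 0.73 with UMI limits and 0.29 without members carrying other markers, and -0.18 to 1.95 when 1 hashtag was left out, while that of Ang II was -0.90 to -0.24. The class I median was 0.65 for B6.SLE123 and -0.28 for Ang II against control C0301 to C0303, with leave-one-out ranges of -0.16 to 0.43 and -0.81 to -0.38. The interferon median of Ang II was 0.41 against control C0301 to C0303, and leaving out 1 hashtag gave -0.66 to 0.11 for it and 0.17 to 0.78 for B6.SLE123.

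Among named genes of B6.SLE123, direction turned for Ccl5 (2.23) and AW112010 (0.72) against control C0304 to C0306, for Cstdc5 (-0.12) and H2-Eb1 (-1.21) with B6.SLE123 C0304 to C0306, and for Gzma (0.92), Ccl5 (0.92) and AW112010 (0.34) without members carrying other markers. Leaving out 1 hashtag gave -0.55 (without B6.SLE123 C0303) to 2.21 for H2-Eb1. For Gzma, Ccl5 and AW112010, with 1, 5 and 7 UMIs in B6.SLE123, it gave -5.63, -4.06 and -2.61 at the lowest and 0.52 without control C0302. In Ang II it turned for AW112010 (1.02) and Ccl5 (4.49) against control C0304 to C0306, Osm (-0.35) with Ang II C0304 to C0306, Crip1 (0.096) and AW112010 (0.83) without other markers, and AW112010 (-2.34 to 0.83) and Ccl5 (-6.45 to 2.78) when 1 hashtag was left out, the upper value without control C0302. Of 500 values of named genes under alternatives in each comparison, 454 (B6.SLE123) and 456 (Ang II) moved by less than their counting interval.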

Other observations

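The share of measured genes past the fold in B6.SLE123 ranged over the autosomes from 1.10% on chromosome 6 (1 of 91) to 11.3% on chromosome 13 (7 of 62), against 4.34% over all chromosomes. The next highest were chromosome 1 with 9 of 109 (8.26%), chromosome 15 with 6 of 79 (7.59%) and chromosome 18 with 3 of 41 (7.32%). These are counts with no test, and neighbouring genes on a chromosome are not independent. On chromosome 13 they included Glrx, Ftl1-ps1 and Gzma, and the doubts given above about Gzma and about the pseudogene hold here too.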
